A study of Canis lupus familiaris with 20 samples.

Results

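A single gene is described here, ENSCAFG00000002753, out of 24580 genes in the count table. It was chosen by its identifier because its transcript stood farther above the controls in affected cartilage than that of other well-measured genes, so its difference between genotypes is given as a description and not as a test. The RNA came from epiphyseal cartilage of the T12 vertebra, taken next to the growth plate at the cranial and caudal ends and pooled per animal, from young dogs of a naturally occurring model of mucopolysaccharidosis VII (MPS VII). Affected dogs were homozygous for the missense allele R166H of GUSB, and litter-matched control dogs were heterozygous for it, so every animal carried the allele. There were 5 control and 5 affected dogs at postnatal day 9, and 5 control and 5 affected dogs at postnatal day 14, with 1 library of polyadenylated RNA per animal. The litter of each animal is not in the labels.

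GUSB encodes beta-glucuronidase, a lysosomal enzyme that removes glucuronic acid from glycosaminoglycans. When it is lacking, partly degraded glycosaminoglycans accumulate in lysosomes, and vertebral bones ossify late. Epiphyseal cartilage is normally replaced by bone in a secondary ossification centre, into which vessels bring macrophages and osteoclasts.

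The gene lies on the plus strand of chromosome 14 of CanFam3.1, from 36918913 to 36947518, a span of 28606 bases. Its annotation in the table has 12 exons with 3659 bases in all, of which the last exon, from 36945892 to 36947518, holds 1627 bases or 44.5%, and the first, from 36918913 to 36919437, holds 525 bases. The inner exons measure 51 to 324 bases. Of the other genes in the table, 0 overlap its span on either strand, so its counts were not shared with an annotated antisense or overlapping gene. The position has been proposed to fit GPNMB, a transmembrane glycoprotein of endosomes and lysosomes that macrophages and osteoclasts make and whose transcript is known from human and mouse work as a marker of lysosomal stress. The RefSeq gene table of another assembly, UU_Cfam_GSD_1.0, lists GPNMB on chromosome 14 between the coding genes NUP42 and MALSU1. That table shares 0 identifiers with the count table, so neither the name nor the role is assigned here, and the cartilage could not be checked against marker genes. Other genes are given below by their CanFam3.1 position for the same reason.

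Libraries held 15772761 to 28028365 counts. The day 9 libraries were deeper than those of day 14 except for affected day 9 replicate 3, with 21419930 counts, which lay below affected day 14 replicate 1, with 22471728. That affected day 9 library also stood apart on the third principal component of all tested genes, where its score was 85.0 and the other affected animals of day 9 scored -17.8 to -4.70. The most abundant gene of the table took 7.48% of its counts, whereas it took 25.4% to 33.2% in those 4 animals. The level and the changes of the gene that include this library are also given without it.

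In day 9 controls the transcript was scarce. The 5 libraries held 86, 46, 36, 72 and 18 counts, which correspond to 2.999, 1.96, 1.59, 4.17 and 0.806 CPM (counts scaled to the effective size of the library). The mean was 2.31 CPM ± 1.31 (SD, n = 5). The highest library was 5.18 times the lowest, and the coefficient of variation between animals was 56.8%. Counting alone gives a coefficient of variation of 23.6% for the library with 18 counts, or 33.3% if both mates of each read pair were counted.

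In day 14 controls the level was still low but above that of every day 9 control. The libraries held 258, 112, 78, 358 and 213 counts, or 10.4, 5.38, 4.42, 16.8 and 9.21 CPM, with a mean of 9.24 CPM ± 4.91 (SD, n = 5). Replicate 4 was the highest and replicate 3 the lowest, and the coefficient of variation was 53.1%. Replicates 4 and 1, the highest in this gene, also differed from the rest of the group over all genes. On the first principal component they scored -75.4 and -71.5, and the others -57.1 to -53.7. The most abundant gene of the table took 12.9% and 10.4% of their counts, against 19.1% to 24.7% in the others. A link to the level of the gene was not tested.

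Affected dogs of day 9 held 6199, 6860, 10725, 5903 and 5367 counts. In CPM these were 281, 286, 424, 278 and 247, with a mean of 303 CPM ± 69.2 (SD, n = 5). Of the 5 animals, 4 lay within 247 to 286 CPM, and replicate 3, the library that stood apart in all genes, was the highest. Relative to unscaled library totals it held 501 CPM and the others 218 to 280 CPM. Without it the mean was 273 CPM ± 17.9 (SD, n = 4), and the coefficient of variation went from 22.8% to 6.57%.

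At day 14, affected dogs held 16179, 23607, 12551, 16920 and 12599 counts. In CPM these were 743, 1124, 700.4, 896 and 611, with a mean of 815 CPM ± 201 (SD, n = 5). The highest animal was 1.84 times the lowest, and the coefficient of variation was 24.7%. In log2 CPM the SD between animals was 0.86 and 0.76 in controls of day 9 and day 14, and 0.30 and 0.34 in affected dogs. In the fit over all genes the biological coefficient of variation of this gene was 0.357, against 0.192 for the trend of genes of its abundance.

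**Figure D1:**
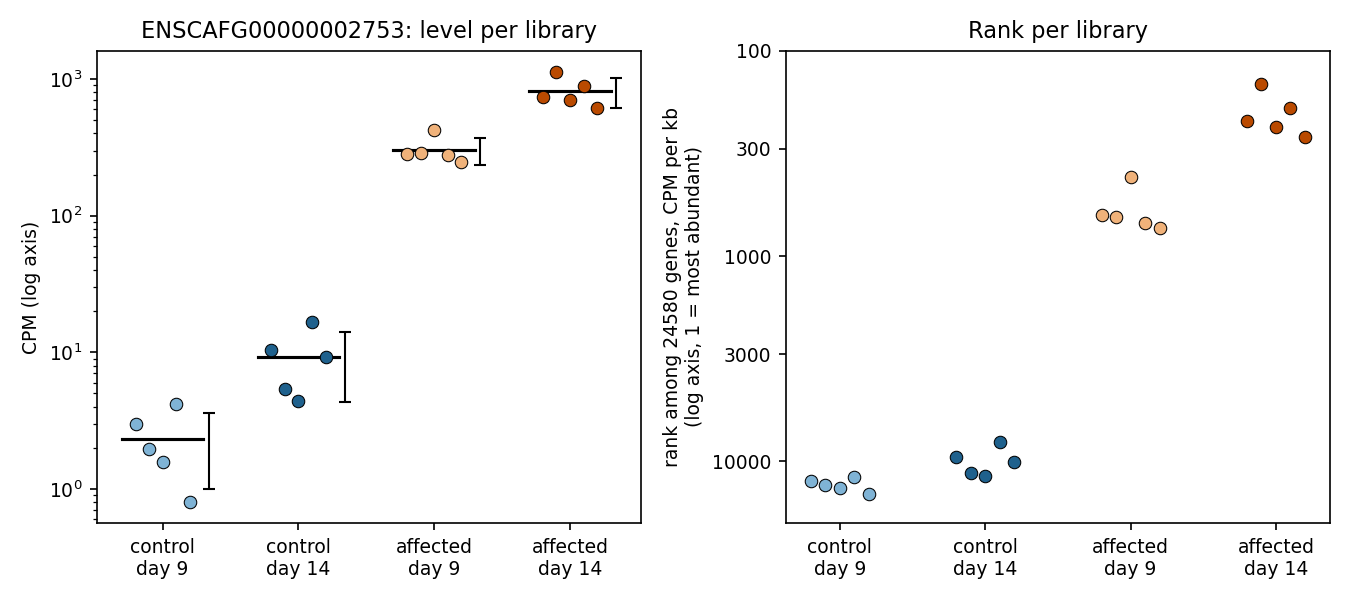
Left, level of ENSCAFG00000002753 in CPM on a log axis, with 1 point per library, the group mean as a line and the SD as a bar beside it (n = 5 per group); right, its rank by CPM per kb of exon among all 24580 genes, on a log axis with the most abundant gene at 1. The 4 groups do not overlap in level, and the ranks of affected dogs lie between 145 and 729.

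The order of the groups was control day 9, control day 14, affected day 9, affected day 14, and no group overlapped the next. The step between controls of both ages was narrow at its edge, since the lowest day 14 library, at 4.42 CPM, was 1.06 times the highest of day 9, at 4.17 CPM. Between controls of day 14 and affected dogs of day 9 the gap was 14.7-fold, from 16.8 to 247 CPM. Between affected dogs of both ages it was 1.44-fold, from 424 to 611 CPM. In bulk tissue, more cells that make a transcript cannot be told apart from more transcript per cell.

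Per kilobase of exon, which allows levels of different genes to be compared, the mean was 0.630 CPM per kb ± 0.358 in day 9 controls and 2.53 ± 1.34 in day 14 controls (SD, n = 5 each). It was 82.8 CPM per kb ± 18.9 in affected dogs of day 9 and 223 ± 55.0 in those of day 14. By these means the gene ranked 12961 and 10054 of 24580 genes in controls of day 9 and day 14. It ranked 597 and 204 in affected dogs of the same ages, where 97.6% and 99.2% of all genes lay below it. Without affected day 9 replicate 3 the day 9 value was 74.6 CPM per kb ± 4.90 (SD, n = 4), at rank 669. Ranks of single libraries ran from 145 to 262 in affected dogs of day 14 and from 414 to 729 in those of day 9. In controls of day 9 and day 14, 47.3% and 59.1% of all genes lay below it.

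The comparison of genotypes at day 9 is the one for which the gene was picked. Affected dogs stood 301 CPM above controls, with a log2 fold change of 7.05 ± 0.42 (SE), or 133-fold. Their lowest library was 59.1 times the highest control. This was the largest log2 fold change of 14550 tested genes. Without affected day 9 replicate 3 the difference was 271 CPM and the log2 fold change 6.90. Among all tested genes, 8.38% passed the threshold at day 9 (quasi-likelihood test of edgeR, Benjamini-Hochberg adjusted over all tested genes, threshold 0.05), and libraries of the genotypes did not overlap in 8.09%.

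At day 14, affected dogs stood 806 CPM above controls, with a log2 fold change of 6.46 ± 0.40 (SE), or 87.8-fold. The lowest affected library was 36.4 times the highest control. It was the second largest log2 fold change of the 14550 tested genes. The gene ahead of it, on chromosome 20 from 47062281 to 47067001, held 0 counts over the controls and 57 over the affected dogs, with a mean of 0.575 CPM ± 0.233, and was looked up after its value was seen. At this age 22.0% of tested genes passed the threshold, and libraries did not overlap in 19.1%.

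Genes next in size were taken among those with at least 2 CPM in affected dogs, no overlap between genotypes and an edgeR adjusted p under 0.05. All were less abundant per kilobase of exon than ENSCAFG00000002753, which held 82.8 and 223 CPM per kb in affected dogs of day 9 and day 14. The 3 genes of day 9 held 2.13 to 46.8 CPM per kb in affected dogs of that age. The 3 genes of day 14 held 3.23 to 63.1 CPM per kb in affected dogs of that age. At day 9 they were a gene on chromosome 9 from 53425168 to 53472725, with a log2 fold change of 6.65 ± 0.98 (SE), a gene on chromosome 11 from 67713589 to 67726155, with 6.37 ± 0.66, and a gene on chromosome 11 from 58085495 to 58090683, with 5.42 ± 0.40. Their mean levels in affected dogs were 76.2 CPM ± 124, 4.75 CPM ± 3.26 and 2.86 CPM ± 0.158 (SD, n = 5). The first of them was highest in affected day 9 replicate 3, which held 298 CPM while its group mates held 14.9 to 28.7 CPM and the day 9 controls 0.464 to 1.16 CPM. At day 14 the next were a gene on chromosome 5 from 55782140 to 55828330 (5.45 ± 0.39), the same gene on chromosome 9 (5.31 ± 0.99) and a gene on chromosome 9 from 37734558 to 37740115 (5.16 ± 0.71). Their means in affected dogs were 18.1 CPM ± 6.11, 21.3 CPM ± 19.0 and 45.8 CPM ± 23.7.

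**Figure D2:**
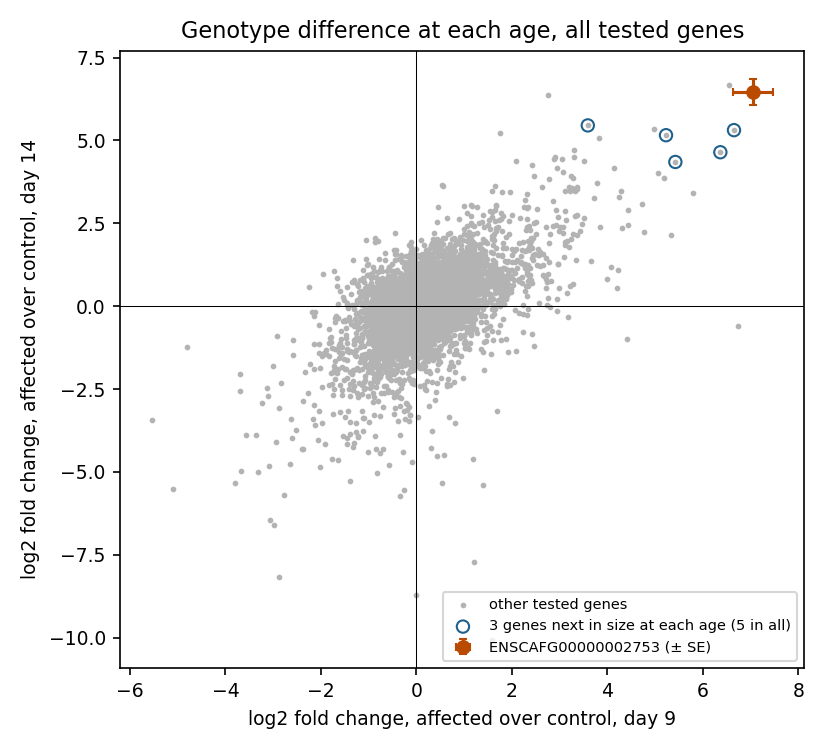
Log2 fold change of affected over control dogs at day 9 (horizontal axis) and day 14 (vertical axis) for the 14550 tested genes in grey, with ENSCAFG00000002753 in orange (bars are SE) and the genes next in size ringed in blue. The gene lies at 7.05 and 6.46; the 5 ringed genes lie between 3.59 and 6.65 on the horizontal axis and between 4.35 and 5.45 on the vertical axis.

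The gene was not picked for its change from day 9 to day 14, and that change was tested in each genotype. The tests are not fully independent of the choice, since they use the same libraries, and a pick for scarce transcript in day 9 controls favours a rise in controls. In controls the transcript rose 4.06-fold, from 2.31 to 9.24 CPM (log2 fold change 2.02 ± 0.37 SE, edgeR adjusted p = 2.03e-04). All 5 libraries of day 14 lay above all 5 of day 9. Among all tested genes, 21.8% passed upward with age in controls and 42.5% passed in either direction. Libraries of both ages did not overlap, in either direction, in 38.4%, so a call was common in this comparison. The size of the change was larger than that of 97.6% of tested genes. Without control day 14 replicate 4, the highest, the log2 fold change was 1.72 (edgeR adjusted p = 5.74e-04).

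In affected dogs the transcript rose 2.69-fold, from 303 to 815 CPM (log2 fold change 1.43 ± 0.32 SE, edgeR adjusted p = 0.00345). In this genotype too all 5 libraries of day 14 lay above all 5 of day 9. Of all tested genes 12.7% passed upward in this comparison and 22.7% passed in either direction. Libraries did not overlap, in either direction, in 11.5%. Without affected day 9 replicate 3 the log2 fold change was 1.60 (edgeR adjusted p = 0.00203). In controls every library of day 14 was less deep than every library of day 9 (16975358 to 20766128 against 22703756 to 28028365 counts). In affected dogs the same held except that affected day 9 replicate 3 lay below affected day 14 replicate 1. An effect of depth or of the time of collection cannot be told apart from age.

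On the log scale the age change was smaller in affected dogs than in controls by 0.59 ± 0.48 (SE), and on the linear scale it was larger, 512 CPM against 6.93 CPM (542 CPM without affected day 9 replicate 3). As affected minus control, the log2 difference of -0.59 was -0.45 without that library, -0.25 without control day 14 replicate 4, -0.38 without control day 9 replicate 5, and -0.93 with libraries scaled by their totals alone. This difference is made of the genotype differences for which the gene was picked, so it was not tested. Of all tested genes 3.26% passed the test of that difference.

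The gene's neighbours, chosen by position, were examined for a difference shared by the region. The 10 nearest genes on each side reach 386 kb before and 529 kb after it, and 10 of these 20 had enough counts to be tested. None of the 10 passed the edgeR test for genotype at day 9, where 8.38% of all tested genes did. At day 14 again 0 of 10 passed by edgeR, where 22.0% of all tested genes did. At an unadjusted edgeR p under 0.05 there were 0 of the 10 at day 9 and 3 at day 14. The share of all genes at that unadjusted level was not computed. It is at least the 8.38% at day 9 and 22.0% at day 14 that passed after adjustment, since adjustment only raises p. DESeq2 called 1547 of all genes and 0 of the 10 at day 9. At day 14 DESeq2 called 3582 of all genes and 1 of the 10 neighbours, a gene from 36623281 to 36719498 with a log2 fold change of -0.34 (DESeq2 adjusted p = 0.0447). Their log2 fold changes ran from -0.14 to 0.58 at day 9, with a median of -0.07 against 0.02 over all tested genes, and from -0.33 to 0.26 at day 14, with a median of 0.01 against 0.03.

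The nearest tested gene before it, from 36865846 to 36890727, ends 28.2 kb away. At day 9 its level was 16.4 CPM ± 1.35 in control and 14.9 CPM ± 0.9497 in affected animals, and at day 14 it was 23.3 CPM ± 2.14 and 24.8 CPM ± 3.78 (SD, n = 5 each). The nearest gene after it, from 36959325 to 36968342, begins 11.8 kb away. Its level was 54.4 CPM ± 1.88 in control and 50.5 CPM ± 5.97 in affected animals at day 9, and 39.6 CPM ± 2.97 and 47.6 CPM ± 10.1 at day 14. For both genes the libraries of the genotypes overlapped at each age. Per kilobase of exon, the 10 tested neighbours had mean levels of 1.23 to 60.1 CPM per kb in controls of day 9 and 2.68 to 45.4 in those of day 14, all above the 0.630 and 2.53 of ENSCAFG00000002753. In affected dogs they had 1.17 to 57.0 CPM per kb at day 9 and 2.81 to 52.4 at day 14, all below its 82.8 and 223. The other neighbours, with at most 72 counts each over all libraries, were not tested and are left out of these ranges. The comparison in controls therefore covers only neighbours with enough counts, and not the whole region.

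With age the neighbours moved in both directions. In controls 4 of the 10 rose and 2 fell, where 21.8% of all tested genes rose and 20.7% fell (42.5% together). In affected dogs 2 rose and 1 fell, where 12.7% rose and 9.92% fell (22.7% together). The nearest gene before rose in controls (log2 fold change 0.51 ± 0.11 SE, edgeR adjusted p = 6.73e-04) and in affected dogs (0.74 ± 0.11, edgeR adjusted p = 3.6e-05). The nearest gene after fell in controls (-0.46 ± 0.12, edgeR adjusted p = 0.00375), and its value in affected dogs was -0.09 ± 0.12 (edgeR adjusted p = 0.617).

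**Figure D3:**
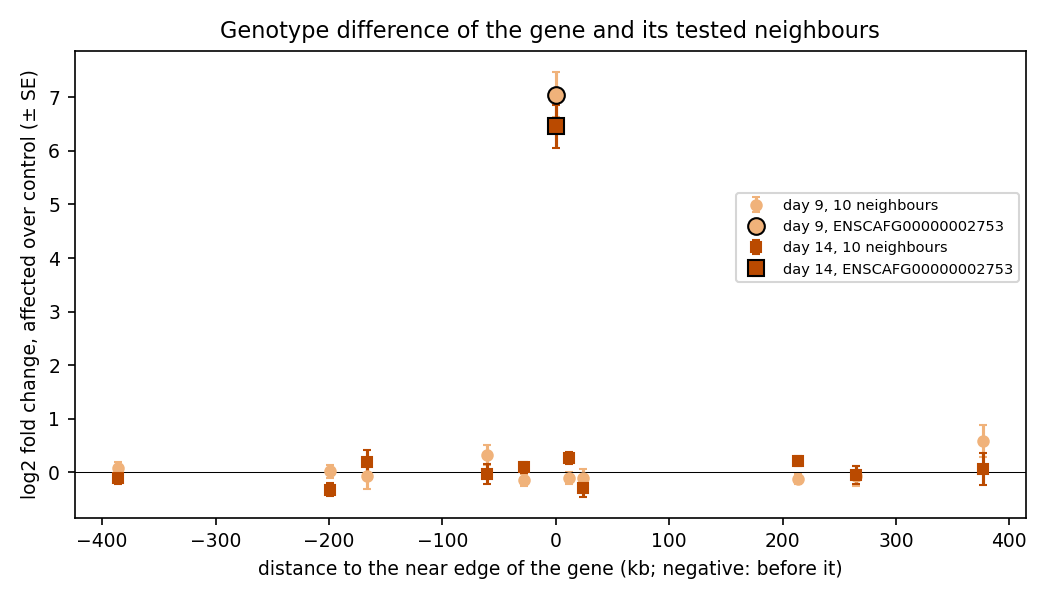
Log2 fold change of affected over control dogs (vertical axis, bars are SE) for ENSCAFG00000002753, at 0 kb, and its 10 tested neighbours by distance in kb to the near edge of the gene, with day 9 as circles and day 14 as squares. The gene lies at 7.05 and 6.46, and the neighbours lie between -0.33 and 0.58.

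Genes of like pattern were ranked by Pearson's r of log2 CPM with this gene over the 20 libraries, among 12362 genes with a mean of at least 2 CPM in a group. The libraries fall into 4 groups far apart in level, so such an r mostly ranks genes by their group means and is given as a description. Of the 5 genes that lead by r, 1 is among the 5 that lead by Spearman's rho. An r of at least 0.9 was found for 42 genes and of at least 0.95 for 9, and the median over all genes was 0.00. Of the 42, 0 lay on chromosome 14, but the share of all 12362 genes on that chromosome was not computed.

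The gene most alike, on chromosome 12 from 9923301 to 9928223, had an r of 0.98 (Spearman's rho 0.95). Its level was 0.635 CPM ± 0.195 and 1.76 CPM ± 0.660 in controls of day 9 and day 14, and 12.5 CPM ± 1.42 and 19.4 CPM ± 7.44 in affected dogs (SD, n = 5 each). Next in likeness came a gene on chromosome 20 from 53342021 to 53385263, with an r of 0.98 (rho 0.95), which went from 0.169 and 0.622 CPM in controls to 5.56 and 10.3 CPM in affected dogs. A gene on chromosome 24 from 26774177 to 26801096, with an r of 0.97 (rho 0.95), was the most abundant of them per kilobase of exon (48.6 CPM per kb in affected dogs of day 14, the others 3.78 to 17.4), with means of 7.98, 18.0, 60.8 and 97.9 CPM in the same order of groups. A gene on chromosome 11 from 58085495 to 58090683 had an r of 0.97 (rho 0.94) and means of 0.0605, 0.249, 2.86 and 5.21 CPM. The fifth, on chromosome 29 from 31784610 to 31823728, had an r of 0.97 (rho 0.96) and means of 3.57, 5.93, 12.6 and 20.2 CPM. All 5 had the same order of group means as ENSCAFG00000002753, which largely follows from the choice by r. Their log2 fold changes between genotypes, 1.82 to 5.42 at day 9 and 1.76 to 4.35 at day 14, were smaller than its 7.05 and 6.46. At day 9 this is fixed, since no tested gene had a larger value. Without the 2 libraries farthest from the median of the gene, their r was 0.96 to 0.98 over 18 libraries.

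The most opposite pattern was that of a gene on chromosome 4 from 36063134 to 36210999, with an r of -0.92 (rho -0.85). Its means were 129 and 129 CPM in controls of day 9 and day 14, and 108 and 101 CPM in affected dogs. The next, on chromosome 13 from 18859098 to 18988362, had an r of -0.89 (rho -0.82) and means of 11.8 and 8.05 CPM in controls and 5.01 and 5.07 CPM in affected dogs. Both were lower in affected dogs, with log2 fold changes of -0.25 and -1.23 at day 9. Their smaller size at that age is fixed, since no tested gene had a larger absolute change than ENSCAFG00000002753.

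Likeness within groups was measured on the deviations of log2 CPM from the group mean, which leave out genotype and age. The SD of log2 CPM of the gene was 0.86 and 0.76 in controls, against 0.30 and 0.34 in affected dogs. Most of its deviations therefore come from controls, which held 18 to 358 counts each, and the r within groups describes mainly these libraries. The 42 genes with an r of at least 0.9 over libraries had a median r of 0.26 within groups, against 0.02 over all 12362 genes. Deviations within groups also enter the r over libraries that picked the 42 genes, so part of this gap is built into the choice. The highest r within groups, 0.83 (rho 0.67), was that of a gene on chromosome 7 from 16190041 to 16227260, which stood at 1.57 CPM ± 0.506 and 6.50 CPM ± 1.87 in controls of day 9 and day 14 and at 5.14 CPM ± 0.913 and 11.7 CPM ± 1.68 in affected dogs. The next were a gene on chromosome 2 from 21688899 to 21740231, with 0.82 (rho 0.81), and a gene on chromosome 1 from 30736957 to 30871884, with 0.79 (rho 0.82). The last 2 had an r over all libraries of 0.21 and 0.15 (-0.09 and -0.12 without the 2 libraries farthest from the median of the gene), and log2 fold changes between genotypes of 0.13 and 0.27 at day 9 and -0.23 and -0.56 at day 14. Without affected day 9 replicate 3 the r within groups was 0.82, 0.82 and 0.78 over 19 libraries. In day 14 controls the gene on chromosome 1 was highest, at 22.8 CPM, in replicate 4, as ENSCAFG00000002753 was, and in day 9 controls it was highest, at 7.95 CPM, in replicate 1, where ENSCAFG00000002753 was second to replicate 4.

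**Figure D4:**
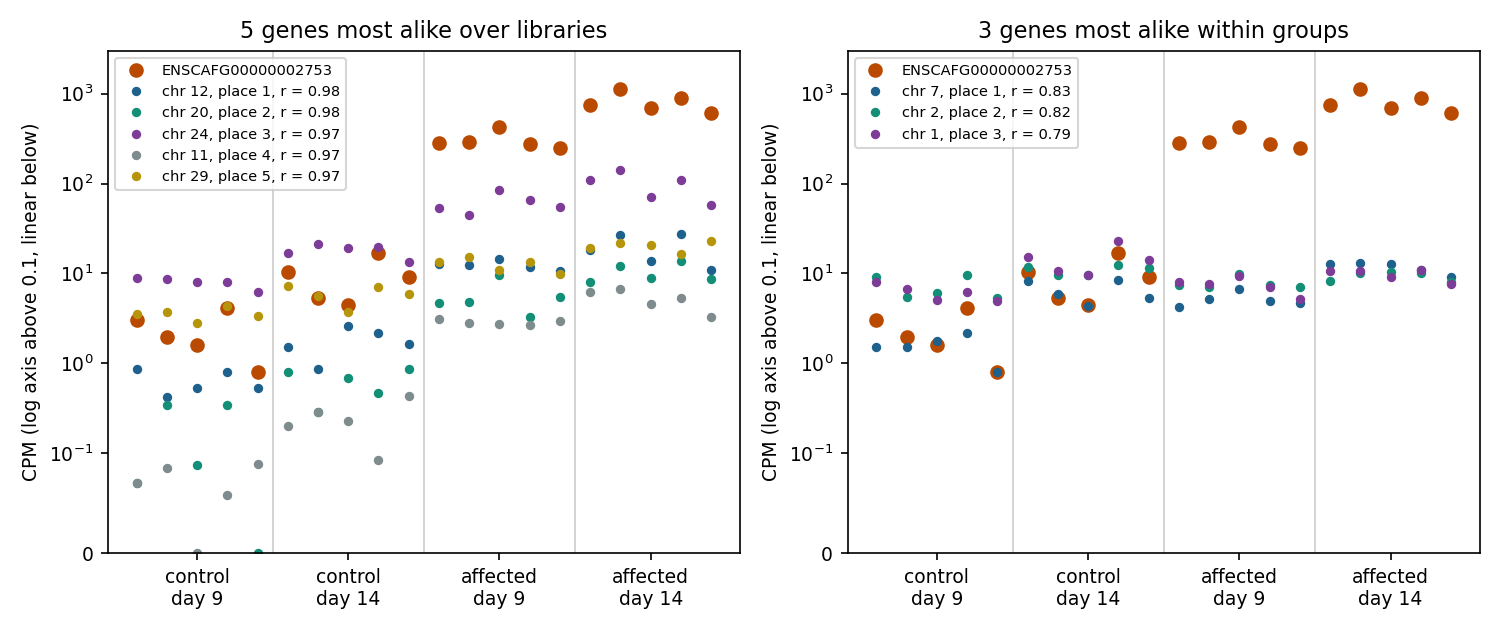
Levels in CPM per library (log axis above 0.1 CPM, linear below), with ENSCAFG00000002753 in orange. The 5 genes most alike over the 20 libraries are on the left and the 3 most alike within groups on the right. Libraries of a group stand side by side in order of replicate number. On the left each gene is lowest in day 9 controls and highest in day 14 affected dogs by group mean; on the right the genes on chromosomes 2 and 1 lie between 4.93 and 22.8 CPM in every group.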

How the data were processed

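Per the labels' protocols, a stranded mRNA kit was used, paired reads of 100 bases were obtained, and mapping was to CanFam3.1 under Ensembl build 77. The submitters' processing notes name STAR 2.4.0j, HTSeq, edgeR, bcl2fastq and CASAVA 1.8.2 without their roles. The authors deposited unnormalised whole-number counts for each gene beside its exon positions and summed exon length. Whether counting used strand, and what became of reads shared by near-identical genes, is not given in the sources used here. Column names matched sample titles, and 0 count columns belonged to no sample. Replicates are separate animals per the labels, numbered in accession order. Libraries of a group differed by more than sampling noise (chi-square per gene 17.7 to 649 over 40 pairs). Of counts above 0 and under 200, 65.2% to 76.4% per library were even, which double counting of mates would give, so fits were repeated on halved counts. The counting coefficients of variation cover counting only, whereas the SD and SE values include the spread between animals.

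The counts went into edgeR 4.0.16 (R 4.3.3): filterByExpr kept 14550 genes and dropped 10030 with 0.0413% of counts, TMM scaled the libraries, and 1 fit over the 20 libraries with a mean per group gave all comparisons (glmQLFit with robust estimation, glmQLFTest, Benjamini-Hochberg adjustment, threshold 0.05). The standard error of a log2 fold change is its size divided by the square root of F. Patterns used log2 CPM with a prior count of 2. DESeq2 1.42.0, other scalings, other filters and leaving out each library were alternatives.

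The gene, the lists and the tests were chosen with earlier results of these data known. Besides the gene itself, the genes named are the 3 next in size per age, the 5 most alike and 2 most opposite over libraries, the 3 most alike within groups, and the nearest tested gene on each side, with any called neighbour. The neighbours called under an alternative alone and the chromosome 20 gene from 47062281, which ranks ahead of the gene at day 14, fall outside these choices and were named after their values were seen. Marker and pathway lists by symbol could not be applied because 0 of 24580 identifiers matched the RefSeq table.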

Additional observations from a re-analysis of the deposited data

Results flagged for a closer look

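A library was listed when its gap to the nearest of the other 4 in its group was large for the range of the group. Chance lists about 1 in 20 such groups, and 5 of 74 were listed over the 19 genes named. For ENSCAFG00000002753 this was affected day 9 replicate 3, at 424 CPM where the other 4 held 247 to 286 CPM; controls of that age reached 4.17 CPM. The same library was listed for a gene on chromosome 9 from 53425168, with 298 CPM against 14.9 to 28.7 CPM, for another on chromosome 9 from 37734558, with 117 CPM against 8.02 to 26.0 CPM, and for the gene on chromosome 2 from 21688899, with 9.96 CPM against 7.03 to 7.44 CPM. Affected day 14 replicate 4 was listed for the gene on chromosome 9 from 53425168, with 54.8 CPM against 8.59 to 16.3 CPM.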

How the results depend on the processing

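The genotype difference of ENSCAFG00000002753 lay between 7.03 and 7.21 (log2) at day 9 and between 6.28 and 6.46 at day 14 under 7 alternatives each, and between 6.83 and 7.34 and between 6.28 and 6.78 when each library was left out in turn. Its rise with age kept its call under every one of these in controls (2.03 to 2.47, adjusted p at most 0.00372; 1.72 to 2.31 without single libraries, at most 9.50e-04) and in affected dogs (1.42 to 1.54, at most 0.00597; 1.32 to 1.60, at most 0.0108). The difference of the age change ran from -0.93 to -0.58, and from -0.88 to -0.25 without single libraries. Library totals alone moved the median of all genes by 0.42 for age in controls, and relative to that median the gene changed by 2.10 against 2.08 as reported. At day 14, 1 neighbour was called by DESeq2, and 0 to 1 without single libraries: the gene from 36623281 when control day 14 replicate 2, or affected day 14 replicate 3 or 5, was left out, and the gene from 36959325 (log2 fold change 0.34) without affected day 14 replicate 4. Of the 5 genes most alike, 1 stayed by Spearman's rho, and 4 to 5 without single libraries. Counts of called genes moved by over 1.5 times for genotype at day 9 with only the compared groups (711 against 1220), for age in affected dogs with only those groups (1466 against 3297) or library totals alone (2073), and for the age change's difference by DESeq2 (932 against 474) or without single libraries (199 to 759). In each such case the cause was not tested. No paired analysis was possible because the replicate numbers come from accession order and the labels give no litter for the animals. Depth limits the values of day 9 controls, with 18 to 86 counts each.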
